A study of Mus musculus with 6 samples.

Results

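The 35 genes described here encode the enzymes, transporters and kinases that take glucose to pyruvate and lactate, gate the entry of pyruvate into mitochondria, and branch off into the pentose phosphate pathway. They were chosen by name for their place in these pathways, with earlier results of these data known, and all 35 were found among the 17909 genes listed in at least 1 library. In glycolysis, glucose is phosphorylated by hexokinase, committed by phosphofructokinase and split into trioses, which are oxidised to pyruvate. Pyruvate is either reduced to lactate and exported with protons, or oxidised by the pyruvate dehydrogenase complex, which is switched off when a pyruvate dehydrogenase kinase phosphorylates it. The pentose phosphate pathway diverts glucose 6-phosphate to make NADPH and ribose. Many steps are served by several isoforms, which differ in kinetics and in the tissues that use them. Hepatic stellate cells, the vitamin A-storing pericytes of the liver, are known to raise glycolysis when they turn into collagen-producing myofibroblasts.

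RNA was sequenced from day 1 cultures of such cells, isolated from male C57BL/6 mice of 24 weeks of age. The HAS2_Tg group (replicates 4, 5 and 6) had genotype ASMA-HAS2 Tg, a human HAS2 transgene driven by the smooth muscle alpha-actin promoter and therefore dependent on cells that use that promoter. The Has2_KO group (replicates 7, 8 and 9) had genotype Has2 f/f Lrat-cre, in which Has2, a hyaluronan synthase gene, is removed in cells that express Lrat. All cells passed through a density gradient and Cd11b bead depletion of macrophages, attached for 4 h and stayed in serum-containing medium for 14 h more. The design sets transgenic expression of a hyaluronan synthase against the loss of one. A wild-type group is not analysed here, and it therefore cannot be told apart whether a difference arose in the transgenic or in the knockout cells. The labels do not say whether the 3 libraries of a group came from separate animals, so the p-values measure only the spread between these libraries, which may be technical.

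The libraries held between 11961726 and 12423220 expected counts. HAS2_Tg replicate 4 stood apart from its group: the chi-square per degree of freedom between libraries was 22.8 and 31.5 for its pairs, 6.24 for replicates 5 and 6, and 2.31 to 3.17 for the Has2_KO pairs. Has2 had 835 to 889 counts in HAS2_Tg and 1 count in each Has2_KO library. Counting used the mouse genome and the transgene is human, and how much of the Has2 count came from the transgene was not tested. Of 15 stellate cell markers tested, 12 were higher and 1 was lower in HAS2_Tg, with a summed level of 13205 to 15030.2 CPM (counts scaled to a common library size) against 9893 to 10526. All 20 tested macrophage and Kupffer cell markers were lower in HAS2_Tg, at a summed 15.03 to 17.9 CPM against 703 to 759 CPM, and Clec4f and Timd4 had no count in that group. Endothelial markers were lower for 19 of 20, with Emcn at 0, and the exception, Ehd3, stood at 396 to 420 CPM in HAS2_Tg and 183 to 192 in Has2_KO. Their summed level was 437 to 469 CPM against 1346 to 1431, and without Ehd3 41.3 to 49.0 CPM against 1154 to 1247. Hepatocyte markers were lower for 10 of 10 tested, at 2.96 to 3.84 CPM against 43.7 to 57.9, with Apoc3, Serpina1c and Hnf4a at 0. Of the remaining lists, 3 of 3 cholangiocyte markers, 2 of 3 neutrophil markers and 2 of 4 dendritic cell markers tested were lower in HAS2_Tg, and no T and NK, B or erythroid marker was abundant enough to test. These marker levels moved with the groups, and their part in the results was not tested. In bulk RNA, fewer cells of a type and less RNA per cell cannot be told apart.

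Glycolytic genes did not move as a block between the genotypes. Aldoc was nearly absent and could not be tested. Of the 34 tested genes, 10 were higher and 10 lower in HAS2_Tg, and 14 did not pass edgeR's quasi-likelihood test at a Benjamini-Hochberg adjusted p of 0.05 over all 13014 genes. Among all tested genes 40.7% passed, 20.2% higher and 20.5% lower, beside 58.8% of the glycolysis and pentose phosphate genes. The latter had a median level of 75.1 CPM against 26.6 CPM for all tested genes. The median size of the log2 fold change was 0.33 for them and 0.25 for all. Their median log2 fold change was 0.02, beside -0.01 for all. Only Hk2, Pfkp, Ldhb and Pdk1 changed by 2-fold or more, and 5 genes, these and Pdk2, passed a test against a fold of 1.5, as did 12.3% of all genes. The 3 libraries of a group lay wholly above or below the other 3 for 21 of the 34 genes, namely the 20 that passed and Taldo1, and for 52.2% of all tested genes. HAS2_Tg replicate 4 was the highest of its group for 19 of the 34 genes, and for 39.8% of all tested genes. Without it 8 of the genes were higher and 10 lower, with Slc16a3, Pfkfb4 and Pgls no longer called and Tkt called lower.

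**Figure D1:**
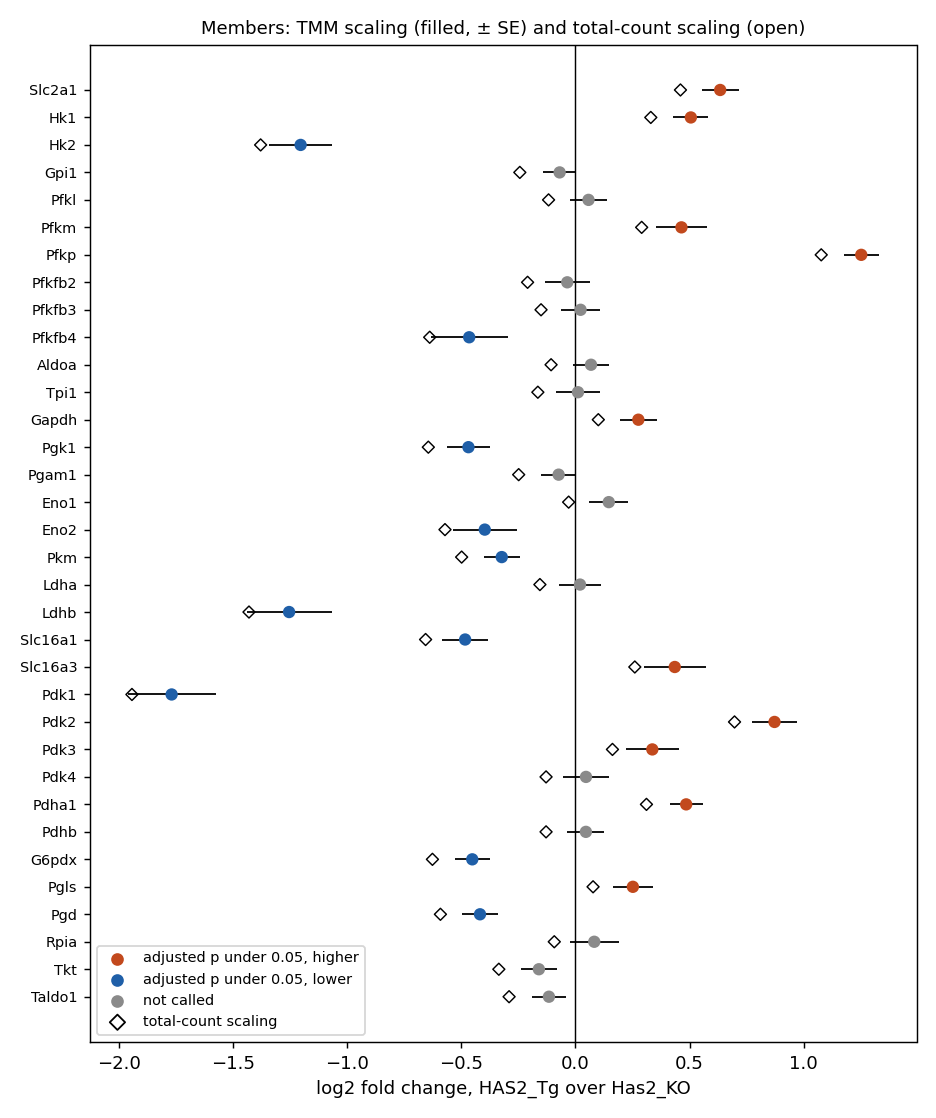
Log2 fold change (HAS2_Tg minus Has2_KO) of the tested genes, with bars of 1 SE, ordered by role. Filled points use TMM scaling and open diamonds scale by total counts, which sit lower by about 0.174. The 4 genes with a change of 2-fold or more are Pfkp on the right and Hk2, Ldhb and Pdk1 on the left.

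The direction of small changes depended on the scaling. Trimmed-mean (TMM) factors, which set the typical gene to no change, were 0.929 to 0.959 in HAS2_Tg and 1.06 to 1.07 in Has2_KO. Scaling by total counts moved the median of all genes by -0.174 on the log2 scale, and 6 of the genes were then higher and 14 lower, so 30% rather than 50% of the calls were higher. Among all called genes the share that was higher fell from 49.5% to 23.4%. The calls of Gapdh, Slc16a3, Pdk3 and Pgls as higher were lost, and Gpi1, Pgam1, Tkt and Taldo1 were called lower. The remaining 16 calls stood on the same side under both scalings. Levels below are TMM-normalised CPM, given as the mean ± SD of 3 libraries or library by library in the order of replicates 4, 5 and 6 and then 7, 8 and 9. Levels of single genes are set side by side in the deposited FPKM, which is scaled for length. Summed marker levels, shares of counts and medians of CPM over genes are not scaled for length.

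In 3 families, sister genes moved in opposite directions: the hexokinases Hk1 and Hk2, the lactate transporters Slc16a1 and Slc16a3, and the kinases Pdk1 and Pdk2. For that reason the 150 bases before their RefSeq starts are shown, read 5′ to 3′ on the gene's own strand (GRCm38.p6). Capitals mark ACGTG or GCGTG on either strand, the forms of the core bound by hypoxia-inducible factors (HIF). Hk1 has 2 starts in the RefSeq table and both are given. The outer Hk1 stretch lies at chr10:62379909-62380058 and the inner at chr10:62340422-62340571, both on the minus strand. The Hk2 stretch lies at chr6:82774455-82774604 on the minus strand, that of Slc16a1 at chr3:104638514-104638663 on the plus strand, and that of Slc16a3 at chr11:120948917-120949066 on the plus strand. For Pdk1 it is chr2:71873074-71873223 on the plus strand and for Pdk2 chr11:95041372-95041521 on the minus strand. Both lie before the outermost start in the RefSeq table. The Pdk1 and outer Hk1 stretches reach slightly into the genes' listed spans. Those of Slc16a3 and of the inner Hk1 start lie wholly inside them.
Hk1 outer start: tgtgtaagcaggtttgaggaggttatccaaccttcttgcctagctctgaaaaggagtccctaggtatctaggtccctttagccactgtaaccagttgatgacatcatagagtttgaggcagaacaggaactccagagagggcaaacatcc
Hk1 inner start: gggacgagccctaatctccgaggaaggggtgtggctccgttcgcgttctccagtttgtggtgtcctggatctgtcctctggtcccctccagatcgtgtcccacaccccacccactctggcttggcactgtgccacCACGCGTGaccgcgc
Hk2: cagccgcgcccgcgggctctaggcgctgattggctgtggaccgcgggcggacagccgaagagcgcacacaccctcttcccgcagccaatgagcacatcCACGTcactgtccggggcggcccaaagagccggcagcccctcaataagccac
Slc16a1: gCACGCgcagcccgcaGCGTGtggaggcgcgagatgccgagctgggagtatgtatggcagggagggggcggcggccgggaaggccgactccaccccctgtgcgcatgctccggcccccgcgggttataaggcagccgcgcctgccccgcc
Slc16a3: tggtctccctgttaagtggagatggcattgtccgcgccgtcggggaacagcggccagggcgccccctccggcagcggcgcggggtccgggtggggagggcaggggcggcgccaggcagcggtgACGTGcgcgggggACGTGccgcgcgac
Pdk1: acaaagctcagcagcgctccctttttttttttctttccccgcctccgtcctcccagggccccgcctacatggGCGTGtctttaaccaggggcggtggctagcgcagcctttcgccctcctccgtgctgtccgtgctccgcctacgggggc
Pdk2: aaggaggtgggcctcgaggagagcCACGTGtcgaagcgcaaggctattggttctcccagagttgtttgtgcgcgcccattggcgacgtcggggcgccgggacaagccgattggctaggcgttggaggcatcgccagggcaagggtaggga

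These letters did not separate the genes that were higher from those that were lower. The longer window ran from 250 bases before to 50 bases after the outermost start in the RefSeq table, and both strands were searched. For some genes, such as Slc16a3, Ldha and Pfkfb4, the gene's listed span begins further out, so the window lies inside it. Within the window ACGTG stood in 6 of the 10 genes that were higher in HAS2_Tg and in 4 of the 10 that were lower. It also stood in 4 of the 14 that did not pass. In all it stood in 15 of 35 promoters, against 19.6% of 27025 promoters in the table and 25.4% of the 10341 promoters of tested genes. GCGTG stood in 6 of 10, 6 of 10 and 10 of 14 of them, and in 23 of 35 in all, against 32.5% and 51.2%. The E-box CACGTG, which contains ACGTG on both strands and is marked whole in the Pdk2 stretch, stood in 4 of 35 against 7.24% and 10.2%. The outer Hk1 stretch held none of the motifs and no CpG, and the inner held 2 GCGTG matches, which overlap, and 10 CpG. A match is a description of the sequence and not a bound site.

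The main glucose transporter and Hk1 were higher in HAS2_Tg, and Hk2 was lower. Slc2a1, which encodes the glucose transporter GLUT1, stood at 105, 106 and 90.5 CPM in HAS2_Tg and at 63.0, 65.8 and 65.0 CPM in Has2_KO. Every transgenic library lay above every knockout library, a 1.55-fold difference (edgeR log2 fold change 0.63, SE 0.08, adjusted p = 1.61e-05). Hk1, the housekeeping hexokinase, was at 283, 248 and 279 CPM against 191, 197 and 183 CPM, again without overlap. It was higher in HAS2_Tg by 0.51 on the log2 scale (SE 0.08, edgeR adjusted p = 8.51e-05). Hk2 is the hexokinase of muscle, fat and many proliferating cells. It went the other way, with 8.07, 6.80 and 10.3 CPM against 18.6, 21.1 and 18.5 CPM, so its highest transgenic library lay well below its lowest knockout library. Its level was 2.31-fold lower in HAS2_Tg (edgeR log2 fold change -1.20, SE 0.14, adjusted p = 5.6e-06). Hk2 lies on chromosome 6 from 82725025 to 82774454. Per length Hk2 was the minor form in both groups, at 1.41 ± 0.29 FPKM against 60.6 ± 3.19 FPKM for Hk1 in HAS2_Tg, and at 3.69 ± 0.28 against 48.2 ± 1.77 FPKM in Has2_KO. Hk1's share of the summed FPKM of the pair was 97.7% ± 0.375 in HAS2_Tg and 92.9% ± 0.32 in Has2_KO. Gpi1, the isomerase of the next step, did not pass (edgeR log2 fold change -0.07, SE 0.07, adjusted p = 0.475).

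At the committed step the platelet subunit was higher in HAS2_Tg by more than its sister subunits. Phosphofructokinase is built from the muscle (Pfkm), liver (Pfkl) and platelet (Pfkp) subunits. Pfkp stood at 175, 156 and 166 CPM in HAS2_Tg and at 68.8, 73.1 and 67.0 CPM in Has2_KO. No other of the 34 genes had a smaller adjusted p: it was 2.38-fold higher (edgeR log2 fold change 1.25, SE 0.08, adjusted p = 6.08e-09). Pfkp lies on chromosome 13 from 6579874 to 6649060 and shares 285 bases with Pitrm1, whose log2 fold change was 0.18 (edgeR adjusted p = 0.0579). Pfkm was higher by less, at 30.6, 26.9 and 24.6 CPM against 17.6, 19.9 and 21.98 CPM (edgeR log2 fold change 0.46, SE 0.11, adjusted p = 0.00399). Its groups did not overlap, but its FPKM values were closer, at 8.86 ± 0.94 and 7.27 ± 0.81, and limma on the FPKM values did not call it (adjusted p between 0.0644 and 0.0979). Pfkl stood at 75.7, 67.1 and 64.6 CPM against 63.5, 67.1 and 68.6 CPM, which overlap (edgeR log2 fold change 0.06, SE 0.08, adjusted p = 0.612). In FPKM, Pfkp (18.4 ± 0.845) and Pfkl (18.7 ± 0.681) were level in Has2_KO, whereas in HAS2_Tg Pfkp was at 38.8 ± 1.56 and Pfkl at 17.2 ± 1.30. Of the subunits' summed FPKM, Pfkp made up 58.7%, 59.0% and 61.8% in the transgenic and 42.7%, 42.5% and 39.2% in the knockout libraries, and the share of Pfkl was 26.5% ± 0.846 against 42.2% ± 0.629.

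Among the enzymes that make fructose 2,6-bisphosphate, the activator of phosphofructokinase, Pfkfb3 and Pfkfb2 moved little, while Pfkfb4 was lower in HAS2_Tg. Pfkfb3, whose product strongly favours making the activator, ranged from 48.1 to 54.3 CPM in HAS2_Tg and from 46.2 to 53.0 CPM in Has2_KO (edgeR log2 fold change 0.02, SE 0.09, adjusted p = 0.861). Pfkfb2, the heart form, ranged from 27.9 to 33.1 and from 29.6 to 34.3 CPM (edgeR log2 fold change -0.04, SE 0.10, adjusted p = 0.799). Pfkfb4 was lower, at 4.04, 5.41 and 4.20 CPM against 6.92, 5.99 and 5.95 CPM (edgeR log2 fold change -0.47, SE 0.17, adjusted p = 0.0398). That call held without HAS2_Tg replicate 5 (edgeR adjusted p = 0.0219) and ended when any other library was left out, with an edgeR adjusted p of 0.0974 without HAS2_Tg replicate 4, 0.0973 without replicate 6, and 0.148, 0.0702 and 0.0697 without Has2_KO replicates 7, 8 and 9.

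**Figure D2:**
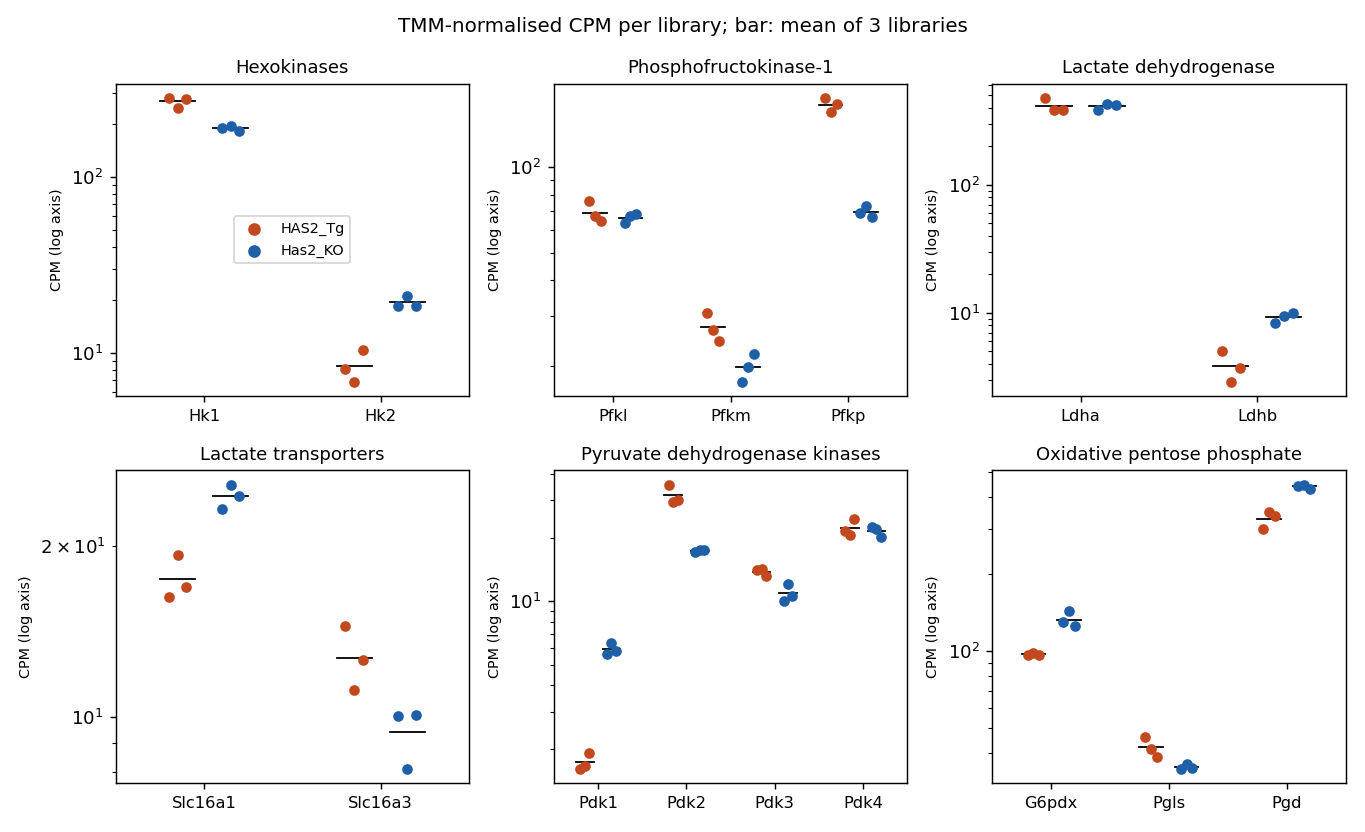
Level in each library (TMM-normalised CPM, log axes) of the hexokinases, phosphofructokinase subunits, lactate dehydrogenases, lactate transporters, pyruvate dehydrogenase kinases and oxidative pentose phosphate enzymes. Points are libraries. Pfkp, Hk1 and Pdk2 lie higher in HAS2_Tg, while Hk2, Ldhb, Slc16a1 and Pdk1 lie higher in Has2_KO.

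In the lower pathway, from aldolase to enolase, Aldoa, Tpi1, Pgam1 and Eno1 did not pass, while Gapdh, Pgk1 and Eno2, given below, did. Aldoa, the main aldolase, ranged from 785 to 890.5 CPM in HAS2_Tg and from 782 to 850.5 CPM in Has2_KO (edgeR log2 fold change 0.07, SE 0.08, adjusted p = 0.518). Aldoc, the brain aldolase, had 3, 1 and 0 counts against 7, 5 and 5 counts, too few to test. Tpi1, which interconverts the trioses, Pgam1, the mutase, and Eno1, the ubiquitous enolase, had log2 fold changes of 0.01, -0.07 and 0.15, and none passed (edgeR adjusted p = 0.942, 0.47 and 0.192). Among the 14 genes that did not pass, no log2 fold change was larger in size than 0.161 and no SE was larger than 0.106.

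Gapdh was higher in HAS2_Tg, and the kinases of both ATP-yielding steps, Pgk1 and Pkm, were lower. Gapdh, which oxidises glyceraldehyde 3-phosphate and is a common reference gene, stood at 3454, 3020 and 3117 CPM in HAS2_Tg and at 2518, 2661 and 2745 CPM in Has2_KO. All 3 transgenic values lay above the knockout values (edgeR log2 fold change 0.28, SE 0.08, adjusted p = 0.0151). The call ended without Has2_KO replicate 7 (edgeR adjusted p = 0.0855) and with total counts (log2 fold change 0.10, edgeR adjusted p = 0.304). Pgk1, the X-linked phosphoglycerate kinase that follows it, was at 202, 167 and 204 CPM against 251, 294 and 249.6 CPM. It was 1.38-fold lower (edgeR log2 fold change -0.47, SE 0.09, adjusted p = 0.000956). Pkm, the pyruvate kinase of most tissues, which yields the second ATP, was at 1311, 1122 and 1172 CPM against 1504, 1494 and 1512 CPM. The knockout libraries lay close together and above all transgenic ones (edgeR log2 fold change -0.32, SE 0.08, adjusted p = 0.00467). The deposited values are per gene, so its M1 and M2 splice forms were not separated. Eno2, the neuronal enolase, was lower at 8.20 ± 0.959 against 10.8 ± 1.27 CPM (edgeR log2 fold change -0.40, SE 0.14, adjusted p = 0.0342). Its call ended without HAS2_Tg replicate 5 or 6 or without Has2_KO replicate 7 or 8 (edgeR adjusted p = 0.0739, 0.112, 0.0961 and 0.149). In FPKM, Gapdh was the highest of the 35 genes in both groups, at 2427 ± 137 and 2265 ± 93.5, and Pkm stood at 464 ± 30.7 and 655 ± 3.58. Gapdh alone took 33.2% to 34.1% of the 35 genes' counts in HAS2_Tg and 27.9% to 29.8% in Has2_KO. The 35 genes together took 0.869% to 0.938% of all counts in HAS2_Tg and 0.961% to 0.99% in Has2_KO, and without Gapdh 0.578% to 0.618% and 0.683% to 0.707%. Processed pseudogene copies of Gapdh, Pgk1, Aldoa and other glycolytic genes could share reads with them, and the sources used here do not state how such reads were assigned.

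The lactate step kept its main enzyme and differed in its minor one. Ldha, which favours lactate formation, stood at 479, 388 and 382 CPM in HAS2_Tg and at 382, 427 and 422 CPM in Has2_KO. The groups overlapped (edgeR log2 fold change 0.02, SE 0.09, adjusted p = 0.886). Ldhb, the heart form, which favours the oxidation of lactate, was at 5.02, 2.88 and 3.67 CPM against 8.29, 9.40 and 9.92 CPM. All transgenic values lay under all knockout values, and the level was 2.39-fold lower (edgeR log2 fold change -1.26, SE 0.19, adjusted p = 6.76e-05). Ldhb, on chromosome 6 from 142490249 to 142507957, was scarce beside Ldha in both groups, at 2.76 ± 0.73 against 237 ± 27.9 FPKM in HAS2_Tg and 7.47 ± 0.66 against 264 ± 15.1 FPKM in Has2_KO.

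The proton-linked lactate carriers moved in opposite directions. Slc16a1, which encodes the widespread transporter MCT1, was at 16.2, 19.3 and 16.9 CPM in HAS2_Tg and at 23.3, 25.6 and 24.5 CPM in Has2_KO. It was lower in HAS2_Tg without overlap (edgeR log2 fold change -0.48, SE 0.10, adjusted p = 0.00134). Slc16a3, which encodes MCT4, the lactate exporter of glycolytic cells, was at 14.4, 11.2 and 12.6 CPM against 10.0, 8.12 and 10.1 CPM (edgeR log2 fold change 0.44, SE 0.14, adjusted p = 0.0191). The Slc16a3 call was the less firm of the pair: its edgeR adjusted p was 0.059 without HAS2_Tg replicate 4, 0.102 without Has2_KO replicate 8 and 0.122 with total counts. In FPKM the order of the carriers differed between the groups, with Slc16a1 at 3.69 ± 0.40 and Slc16a3 at 4.83 ± 0.54 in HAS2_Tg, and 5.82 ± 0.28 and 4.04 ± 0.49 in Has2_KO. Slc16a1 took 38.5%, 49.0% and 42.6% of the pair's FPKM in HAS2_Tg replicates 4 to 6 and 56.3%, 63.7% and 57.2% in Has2_KO replicates 7 to 9. All transgenic libraries lay below 50% and all knockout libraries above. Slc16a3 overlaps Csnk1d by 1292 bases, and Csnk1d had a log2 fold change of 0.03 (edgeR adjusted p = 0.77). Hk1 overlaps Hk1os, which was not tested, and Tpi1 overlaps Spsb2 (log2 fold change -0.055, edgeR adjusted p = 0.75). Pfkm shares 981 bases with Senp1, which was lower in HAS2_Tg (log2 fold change -0.43, edgeR adjusted p = 0.00209). Pfkfb2 shares 4747 bases with Yod1, which was also lower (log2 fold change -0.51, edgeR adjusted p = 0.0418). The sources used here do not state whether the counting used strand.

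At the gate to the mitochondrion 2 kinases, Pdk2 and Pdk3, were higher in HAS2_Tg and Pdk1 was lower. Each of the 4 kinases phosphorylates and inactivates pyruvate dehydrogenase. Pdk1, a classical HIF target, was at 1.61, 1.66 and 1.92 CPM in HAS2_Tg and at 5.62, 6.37 and 5.80 CPM in Has2_KO. It was the gene with the biggest fold change among the 34, 3.41-fold lower in HAS2_Tg (edgeR log2 fold change -1.77, SE 0.19, adjusted p = 3.13e-06). Pdk2, the form found in most tissues, was at 35.6, 29.5 and 30.1 CPM against 17.03, 17.5 and 17.4 CPM, with no overlap and little spread among the knockout libraries. It was 1.83-fold higher (edgeR log2 fold change 0.87, SE 0.10, adjusted p = 5.64e-06). Pdk1 lies on chromosome 2 from 71873215 to 71903858 and Pdk2 on chromosome 11 from 95026258 to 95041371. X-linked Pdk3 was at 14.0, 14.2 and 13.2 CPM against 10.0, 12.1 and 10.6 CPM (edgeR log2 fold change 0.34, SE 0.12, adjusted p = 0.0315), a call lost without HAS2_Tg replicate 5 (0.0843), Has2_KO replicate 7 (0.136) or 9 (0.103), and with total counts (0.271). Pdk4, the kinase induced by fasting, ranged from 20.6 to 24.5 and from 20.1 to 22.4 CPM (edgeR log2 fold change 0.05, SE 0.10, adjusted p = 0.749).

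Per length, Pdk2 was the leading kinase in both groups, at 13.1 ± 1.21 FPKM in HAS2_Tg and 8.06 ± 0.106 in Has2_KO. Pdk1 was the least abundant, at 0.31 ± 0.03 and 1.22 ± 0.07 FPKM, and made up 1.20% ± 0.131 and 5.61% ± 0.16 of the kinases' summed FPKM. The share of Pdk2 was 50.4% ± 2.77 against 37.3% ± 1.16, and that of Pdk4 23.2% ± 2.38 against 30.3% ± 1.63. The target of the kinases, the X-linked E1 alpha subunit Pdha1, was at 289, 300.1 and 297 CPM against 224, 202 and 207 CPM. It was higher in HAS2_Tg without overlap (edgeR log2 fold change 0.49, SE 0.07, adjusted p = 7.59e-05). Pdha1 shares 1128 bases with Map3k15, which was also higher (log2 fold change 0.43, edgeR adjusted p = 0.00117). Pdhb, the E1 beta subunit, did not pass, ranging from 55.8 to 61.9 and from 53.6 to 59.3 CPM (edgeR log2 fold change 0.05, SE 0.08, adjusted p = 0.684).

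**Figure D3:**
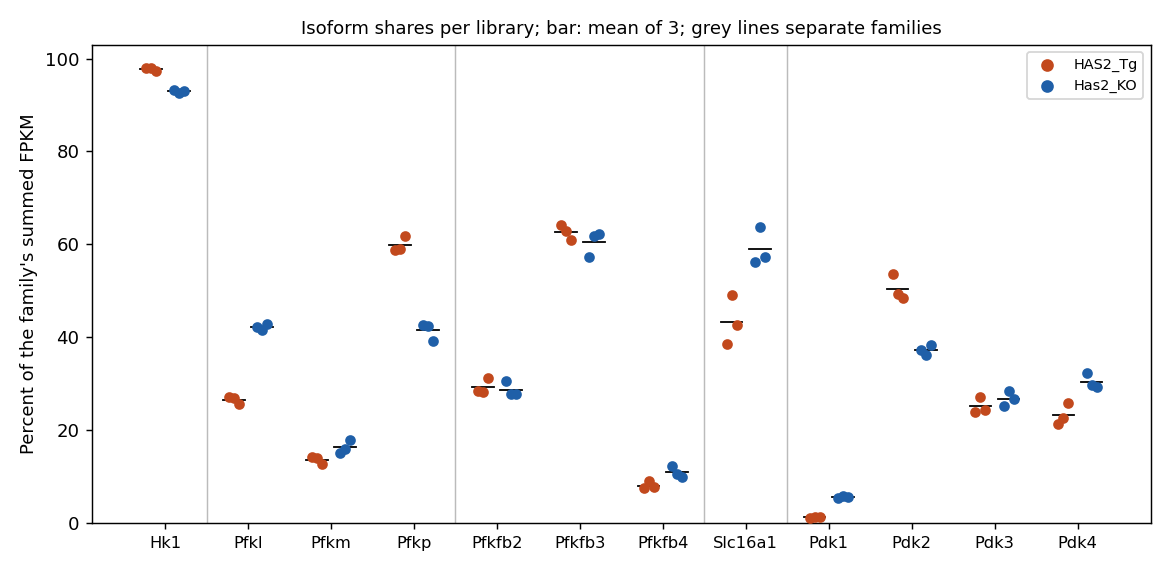
Share of each isoform in the summed FPKM of its family, in percent, for each library of both groups. Points are libraries. Pfkp takes 58.7% to 61.8% in HAS2_Tg and 39.2% to 42.7% in Has2_KO, and Slc16a1 lies below 50% in every HAS2_Tg library and above it in every Has2_KO library.

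Shares within a family do not depend on how libraries are scaled, since the scaling cancels. Shares of 1 family sum to 100% and are not separate measurements, and 15 were compared over 8 families. For shares that did not overlap between the groups the exact two-sided permutation test gave p = 0.1, the lowest value this test can reach with 3 and 3 libraries, and 0.125 after Benjamini-Hochberg adjustment over the 15, so the design cannot pass 0.05. The shares that overlapped were those of Pfkfb2, Pfkfb3 and Pdk3. In families of a pair of isoforms only 1 share was taken. The share of Aldoa rests on Aldoc at 0 to 7 counts and is not read here.

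Both NADPH-producing dehydrogenases of the oxidative pentose phosphate branch were lower in HAS2_Tg, and the lactonase between them was slightly higher. G6pdx, the X-linked entry enzyme, was at 97.0, 97.8 and 96.1 CPM in HAS2_Tg and at 130.1, 143 and 125 CPM in Has2_KO. The transgenic libraries lay within 2 CPM of each other and below every knockout library (edgeR log2 fold change -0.45, SE 0.08, adjusted p = 0.000224). Pgd, the dehydrogenase that releases ribulose 5-phosphate, was at 298, 349 and 337 CPM against 440.1, 446 and 429.7 CPM. It was lower in HAS2_Tg by a like amount (edgeR log2 fold change -0.42, SE 0.08, adjusted p = 0.000486). Pgls, the lactonase, was at 42.0 ± 3.90 CPM against 35.3 ± 0.759 CPM (edgeR log2 fold change 0.25, SE 0.09, adjusted p = 0.0349), the smallest change that passed. It failed without HAS2_Tg replicate 4 or 5 (0.0904 and 0.0662), without Has2_KO replicate 7, 8 or 9 (0.118, 0.076 and 0.11) and with total counts (log2 fold change 0.08, edgeR adjusted p = 0.498). G6pdx overlaps Ikbkg over 19398 bases, and Ikbkg was lower by less (log2 fold change -0.22, edgeR adjusted p = 0.0418).

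None of the non-oxidative enzymes passed. Rpia, the ribose 5-phosphate isomerase, had a log2 fold change of 0.08 (SE 0.11, edgeR adjusted p = 0.569). Tkt, transketolase, stood at 259, 221 and 246 CPM against 271, 283 and 258 CPM (edgeR log2 fold change -0.16, SE 0.08, adjusted p = 0.122). Taldo1, transaldolase, stood at 552, 569 and 537 CPM against 633, 571 and 594 CPM, groups that did not overlap (edgeR log2 fold change -0.12, SE 0.07, adjusted p = 0.224). Tkt passed without HAS2_Tg replicate 4 (log2 fold change -0.21, edgeR adjusted p = 0.0174). With total counts both were lower, Tkt at -0.34 (edgeR adjusted p = 0.00216) and Taldo1 at -0.29 (0.00481), as were Gpi1 at -0.24 (0.0131) and Pgam1 at -0.25 (0.013).

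**Figure D4:**
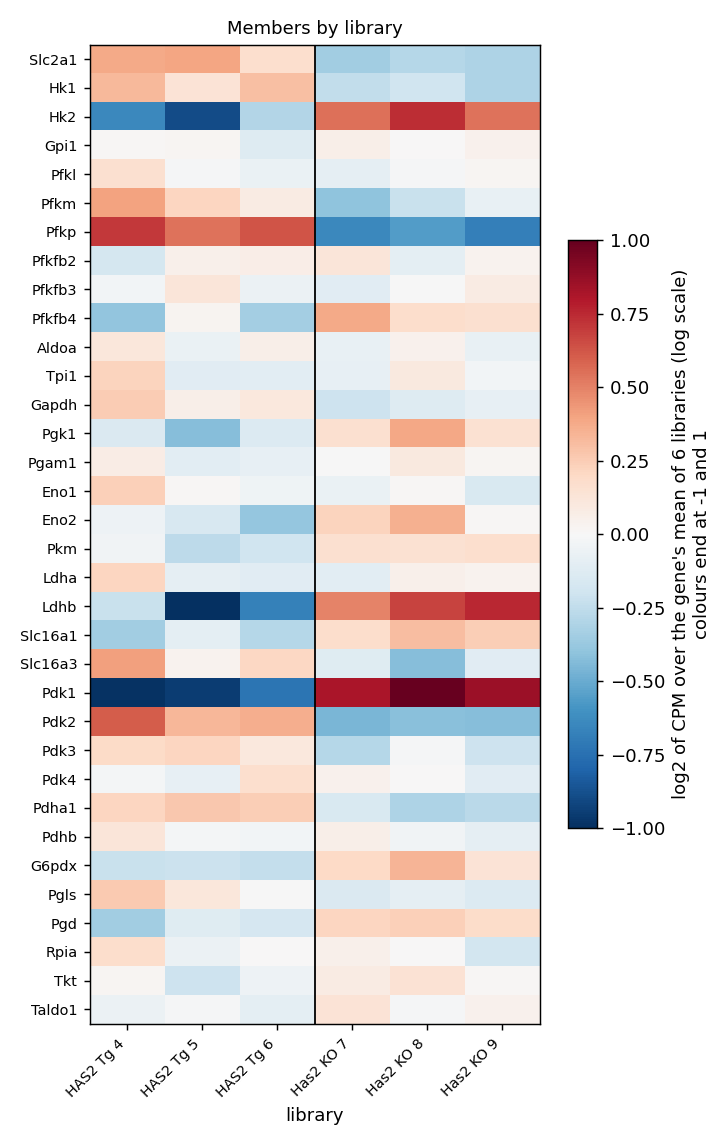
Log2 of each gene's TMM-normalised CPM, less the mean of its log2 values across the 6 libraries. There is 1 row per tested gene, ordered by role, and 1 column per library. The colours end at -1 and 1, and Ldhb goes beyond them. Pfkp and Pdk2 are high in all HAS2_Tg columns, and Hk2, Ldhb and Pdk1 in all Has2_KO columns.

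Neighbouring genes of the same pathways were likewise split. Among 22 tested other glycolytic and hexose phosphate genes, 5 were higher and 5 lower, and with total counts 1 and 8. Eno3, the muscle enolase, was at 10.1 ± 1.86 CPM in HAS2_Tg against 5.83 ± 0.878 CPM in Has2_KO (edgeR log2 fold change 0.79, SE 0.17, adjusted p = 0.00164). Galt, of galactose use, and Tigar, a fructose 2,6-bisphosphatase, rose by 0.50 and 0.33 on the log2 scale, but not with total counts (edgeR adjusted p = 0.0615 and 0.168), and Tigar not without Has2_KO replicate 7 (0.054). Hk3, the hexokinase of myeloid cells, averaged 0.235 ± 0.052 CPM over the HAS2_Tg libraries, against 9.89 ± 0.664 CPM (edgeR log2 fold change -5.34, SE 0.26, adjusted p = 3.86e-10), beside the macrophage marker totals given above. Pgm2, a phosphopentomutase, was lower at 40.3 ± 0.217 against 53.3 ± 1.98 CPM (edgeR log2 fold change -0.41, SE 0.08, adjusted p = 0.000672).

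Around pyruvate, 6 of 17 tested genes were higher and 3 lower, and with total counts 4 and 4. Me1, the cytosolic malic enzyme and another source of NADPH, stood at 206 ± 7.51 CPM in HAS2_Tg against 139 ± 5.67 CPM (edgeR log2 fold change 0.56, SE 0.07, adjusted p = 1.81e-05). Mpc2, a subunit of the mitochondrial pyruvate carrier, and Bsg, the chaperone of MCT1 and MCT4, were higher by 0.54 and 0.45 on the log2 scale (edgeR adjusted p = 0.000477 and 0.000933). Me2, the mitochondrial malic enzyme, and Pcx, pyruvate carboxylase, were lower (log2 fold changes -0.34 and -0.36, edgeR adjusted p = 0.00558 and 0.00974).

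In the wider pentose phosphate list 1 of 9 tested genes was higher and 3 were lower, and with total counts none and 3. Prps1, which makes phosphoribosyl pyrophosphate, was lower (edgeR log2 fold change -0.45, SE 0.11, adjusted p = 0.00454), and Pgm2 was the second. The third, H6pd, the microsomal counterpart of G6pdx, had a log2 fold change of -0.21 (edgeR adjusted p = 0.0417) and did not pass without HAS2_Tg replicate 4 (0.0638) or Has2_KO replicate 7, 8 or 9 (0.112, 0.109 and 0.124). Prpsap1, a regulator of ribose phosphate synthesis, had a log2 fold change of 0.38 (edgeR adjusted p = 0.00495), and 0.21 with total counts (0.0871).

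Of 21 citrate cycle genes 4 were higher and none lower by TMM, whereas with total counts none was higher and 5 were lower. The median log2 fold change of that list was 0.10. Suclg1, Idh2 and Fh1, all enzymes of the cycle, led it with 0.37, 0.35 and 0.28 (edgeR adjusted p = 0.00158, 0.012 and 0.0185), and with total counts none of these passed (0.0507, 0.157 and 0.344). Idh2 also failed without Has2_KO replicate 8 (0.0641) and Fh1 without replicate 7 or 9 (0.0682 and 0.0947).

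HIF subunits, oxygen sensors and HIF targets outside glycolysis gave no single direction. Hif1a, the subunit linked to glycolytic genes, was at 251, 305 and 296 CPM against 293, 291 and 293 CPM (log2 fold change -0.04, edgeR adjusted p = 0.726). Epas1, which encodes HIF-2 alpha, stood at 1531 ± 176 CPM in HAS2_Tg against 828 ± 29.4 CPM (edgeR log2 fold change 0.89, SE 0.09, adjusted p = 1.35e-06). In all, 6 of 26 tested genes of the list were higher and 9 lower, and with total counts 5 and 13. Plod2, a collagen lysyl hydroxylase, and Egln1, the main oxygen sensor, were higher by 0.62 and 0.64. Egln3, an oxygen sensor that HIF induces, was at 0.734 ± 0.305 against 3.17 ± 0.257 CPM (edgeR log2 fold change -2.09, SE 0.29, adjusted p = 4e-05), and Vegfa, the endothelial growth factor, at 20.1 ± 1.12 against 35.6 ± 1.91 CPM (edgeR log2 fold change -0.82, SE 0.09, adjusted p = 4.59e-06). Bhlhe40, a transcriptional repressor, was also lower (log2 fold change -0.57).

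Among 16 tested regulators of sugar metabolism 2 were higher and 4 lower, and with total counts 1 and 9. Prkaa2, a catalytic subunit of the energy sensor AMPK, was at 6.16 ± 0.183 against 18.0 ± 0.63 CPM (edgeR log2 fold change -1.54, SE 0.12, adjusted p = 4.9e-08). Nfe2l2, which encodes NRF2, an activator of oxidative pentose phosphate genes, was at 267 ± 11.3 against 358 ± 7.09 CPM (edgeR log2 fold change -0.42, SE 0.07, adjusted p = 0.000213). Mlx, the partner of the glucose-responsive factors, was lower (log2 fold change -0.34, edgeR adjusted p = 0.00561). Tfeb, a lysosomal regulator, was higher by 0.54 (edgeR adjusted p = 0.00223). Txnip, an inhibitor of glucose uptake that glucose induces, was higher by 0.33 (edgeR adjusted p = 0.00308), and by 0.16 with total counts (0.104).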

How the data were processed

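RNA from 6 libraries, 3 per genotype, was compared. The submitters' processing notes name RSEM and mm10. The RSEM version, the aligner and the strand setting are not given in the sources used here. Every library's file holds expected counts per gene, which the authors estimated, per the file headers, and which can be fractional. Beside them stand FPKM, deposited to 2 decimals and scaled by the authors for length and depth. A gene missing from a library was set to 0 (12658 cells), and 52 of 17909 identifiers had no name in the RefSeq tables. Total counts were 11961726 to 12423220.

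After rounding, genes were filtered by filterByExpr, TMM factors were computed, and genes were tested two-sided with edgeR's robust quasi-likelihood test, HAS2_Tg minus Has2_KO, with Benjamini-Hochberg adjustment over 13014 genes at 0.05. The SE was taken as the absolute log2 fold change over the square root of F. Within groups, pairs of libraries differed by more than sampling noise, with a chi-square per degree of freedom of 2.31 to 3.17 in Has2_KO, 6.24 for HAS2_Tg replicates 5 and 6, and 22.8 and 31.5 for the pairs with HAS2_Tg replicate 4. The groups share no replicate numbers, so nothing was paired. Isoform shares used deposited FPKM. Promoters came from the RefSeq table of GRCm38.p6, of which mm10 is the matching build. The genes and lists were chosen with earlier results of these data known. All 35 genes are accounted for, and from each other list up to 3 genes per direction with the smallest adjusted p and at least 1 CPM in the higher group are named, Hif1a being an addition made after its value was seen. A few names that this rule selects are left out of the text. As alternatives, the scaling (total counts, upper quartile or DESeq2 size factors), the filter (none or stricter), the model (DESeq2's Wald test, or limma on FPKM with a pseudocount of 1 or 0.1 on the log2 scale), an adjusted p of 0.01, a test against a fold of 1.5, and leaving out each library were tried. The scripts were tested on simulated data with the same dispersion for all genes. There 14% of genes changed by 1.25-fold, 50% by 1.5-fold and 100% by 2-fold were recovered, and 4 of 135 calls were false. Python 3.11.15 with statsmodels 0.14.6, scipy 1.17.1, matplotlib 3.10.9, numpy 2.4.6 and pandas 2.3.3 was used beside R 4.3.3 with limma 3.58.1, DESeq2 1.42.0 and edgeR 4.0.16.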

Additional observations from a re-analysis of the deposited data

How the results depend on the processing

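Of the 20 calls, 14 were kept in each of the 6 fits that left out a library, 12 in all 16 alternatives other than the test against a fold of 1.5, and 4 (Hk2, Pfkp, Ldhb and Pdk2) in all 17. Pdk1 did not enter the stricter filter and kept its call in the other 16. No gene changed direction while called. The number of genes higher in HAS2_Tg was 6 with total counts, 5 in each of the limma fits on log2(FPKM + 1), log2(FPKM + 0.1) and unfiltered FPKM, 6 at an adjusted p of 0.01 and 2 in the test against a fold of 1.5, which left 3 lower and 1597 genes called in all. With a library left out, 7 to 10 genes were higher and 8 to 10 lower, and 4188 to 5624 genes were called in all. The DESeq2 Wald test called 8 higher and 8 lower, losing Pfkfb4, Eno2, Pdk3 and Pgls (adjusted p = 0.103, 0.0786, 0.0896 and 0.0659). The 3 limma fits kept Pfkfb4 and Eno2 and lost Pfkm, Gapdh (0.302 to 0.327), Slc16a3 (0.129 to 0.171), Pdk3 (0.215 to 0.25) and Pgls (0.459 to 0.506). When shares were taken from counts not scaled for length, the difference between the groups moved from 4.82 to 6.23 percentage points for Hk1, from 0.567 to 0.817 for Eno1, from 1.61 to 1.28 for Ldha and from -4.41 to -8.18 for Pdk1. It turned sign for Pdk3 (-1.64 to 0.321) and Pfkfb2 (0.594 to -0.191), whose groups overlapped. No paired analysis was possible because the groups share no replicate numbers. Depth limits Aldoc, which had at most 7 counts.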
